A study of Homo sapiens with 24 samples.

Results

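Sterol and fatty acid synthesis genes were followed in 2 human cell lines given doxycycline or water. The 31 genes comprise 17 enzymes of cholesterol synthesis, 9 enzymes of fatty acid synthesis and activation, and 5 regulators or related genes (SREBF1, SREBF2, INSIG1, STARD4 and FAXDC2). They were chosen by name, with earlier results of these data known. A gene counted as measured where a probe set of the array was annotated with its symbol alone, and its level was the mean log2 intensity over such probe sets. This held for 29 of the 31 genes, out of 25029 genes measured that way, and all 29 were among the 17329 genes bright enough to be tested. HSD17B7 and FADS1 were not analysed here, since no probe set carried their symbol alone. CYP51A1 rested on only 3 probe sets.

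HEK293, a human embryonic kidney line, and BJ-hTERT, foreskin fibroblasts immortalised with telomerase, both carry a gene for an HA-tagged YWHAE-NUTM2 fusion, which doxycycline is meant to switch on. Clear cell sarcoma of the kidney is 1 tumour in which such fusions are found. The experiment asked how induction changes expression. The 8 groups of 3 arrays each were HEK293 with doxycycline at 24 h and at 72 h, HEK293 mock at 24 h and at 72 h, and BJ-hTERT with doxycycline and mock at the same times. Every group, mock included, carries the fusion construct, and mock cells received water in place of doxycycline. No group without the construct was analysed here, so an effect of the drug itself and one of the fusion cannot be told apart. Neither line is a kidney sarcoma cell. The labels do not say whether each line is 1 clone. Nor do they say whether the 3 arrays of a group came from separate cultures, and the spread behind each p-value is that between arrays, which may be technical.

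Cells make cholesterol from acetyl-CoA through the mevalonate pathway, and fatty acids from the same precursor through acetyl-CoA carboxylase and fatty acid synthase. Both routes are driven by the SREBP transcription factors, which the SCAP protein escorts out of the endoplasmic reticulum for cleavage when membrane sterol is low. INSIG proteins hold SCAP back when sterol is plentiful. SREBP-2, from SREBF2, acts mainly on sterol genes and SREBP-1, from SREBF1, mainly on fatty acid genes, and both raise INSIG1 and their own genes. SREBPs work together with NF-Y at many of these promoters.

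Promoter windows of 300 bases, from 250 before to 50 after an annotated start, came from the RefSeq table (GRCh38.p14). They were found for 27 of the 31 genes, and not for FASN, FDFT1, ACAT2 and SQLE. They were searched on both strands for a sterol regulatory element (TCACNCCAC), an NF-Y box (CCAAT) and an E-box (CACGTG). No letters of the 3 motifs overlapped in the windows printed. The SREBF2 window was the only 1 of the 27 genes to hold the sterol element, against 1.39% of 27305 genes. Only exact matches inside the windows were counted, so other forms of the element, or elements further away, would be missed. It is shown for that reason, and those of SCD and INSIG1, the members with the smallest p-values over the 4 comparisons of doxycycline and mock and the 2 of mock cells over time, were added after their values were seen. Capitals mark the motifs.
SREBF2: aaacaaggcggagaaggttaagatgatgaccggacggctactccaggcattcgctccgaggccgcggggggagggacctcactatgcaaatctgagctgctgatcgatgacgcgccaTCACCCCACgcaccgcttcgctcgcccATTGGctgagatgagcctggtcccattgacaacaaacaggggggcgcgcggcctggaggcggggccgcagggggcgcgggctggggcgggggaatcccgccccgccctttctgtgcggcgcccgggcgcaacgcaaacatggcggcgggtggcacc
SCD: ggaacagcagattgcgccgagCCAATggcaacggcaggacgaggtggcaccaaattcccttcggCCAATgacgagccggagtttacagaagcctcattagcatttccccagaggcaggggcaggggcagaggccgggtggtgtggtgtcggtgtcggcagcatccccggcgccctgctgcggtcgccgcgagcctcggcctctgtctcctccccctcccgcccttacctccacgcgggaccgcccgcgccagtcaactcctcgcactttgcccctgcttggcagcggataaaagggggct
INSIG1: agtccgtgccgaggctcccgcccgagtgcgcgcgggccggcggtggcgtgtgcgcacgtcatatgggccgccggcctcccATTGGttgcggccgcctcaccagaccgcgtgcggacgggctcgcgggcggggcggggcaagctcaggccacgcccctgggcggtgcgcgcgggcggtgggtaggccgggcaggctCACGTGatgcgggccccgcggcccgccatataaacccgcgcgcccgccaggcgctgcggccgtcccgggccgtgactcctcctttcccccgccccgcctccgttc
The SREBF2 window, chr22:41832855-41833154 on the plus strand, has the sterol element 133 bases before the start and an NF-Y box, read on the opposite strand, at 106. The SCD window, chr10:100346983-100347282 on the plus strand, has NF-Y boxes at 229 and 186 bases before the start. In the INSIG1 window, chr7:155297628-155297927 on the plus strand, an NF-Y box on the opposite strand lies 170 bases before the start and an E-box 55 bases before it. An NF-Y box was present for 21 of the 27 genes, against 39.7% of all genes, and an E-box for 4 (FAXDC2, INSIG1, LSS and SC5D), against 8.77%. These are matches of letters and not sites of binding.

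Correlations across genes, which are not independent replicates, ran from 0.980 to 0.985 within groups, from 0.970 to 0.983 between groups of 1 line and from 0.875 to 0.886 between the lines. Array medians lay between 3.32 and 3.53 log2. For the HEK293 group with doxycycline at 24 h, the 3 titles read HEK239 and the other labels HEK293. Of 8 HEK293 markers measured, 3 to 5 lay above the filter value of 2.83 log2 in the BJ-hTERT groups and all 8 in the HEK293 groups. In mock cells 7 of the 8 were lower in BJ-hTERT than in HEK293, and KRT18, at 7.18 to 7.75 log2 in the BJ-hTERT groups, did not pass (0.30 log2). Of 15 fibroblast markers, 14 lay above that value in the BJ-hTERT groups, where POSTN was lowest, and 11 to 13 in the HEK293 groups, where DCN was lowest; in mock cells 14 were higher in BJ-hTERT than in HEK293 and POSTN was lower. In bulk RNA, fewer cells of a kind and less RNA per cell cannot be told apart. YWHAE and the NUTM2 genes were not analysed here.

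In mock BJ-hTERT cells many genes of both pathways, though not all, were higher at 72 h than at 24 h. Of the 29 members, 15 rose and 0 fell (limma, adjusted p under 0.05), against 1.85% of all genes tested called in either direction and 1.16% called up. The median change was 0.62 log2 for the members and 0.0137 for all genes, and 27 of 29 members lay above 0. The 3 arrays at 72 h lay all apart from the 3 at 24 h for 19 of 29 members, against 19.4% of all genes. All 5 regulators and related genes rose, as did 6 of 16 sterol enzymes and 4 of 8 fatty acid enzymes.

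**Figure D1:**
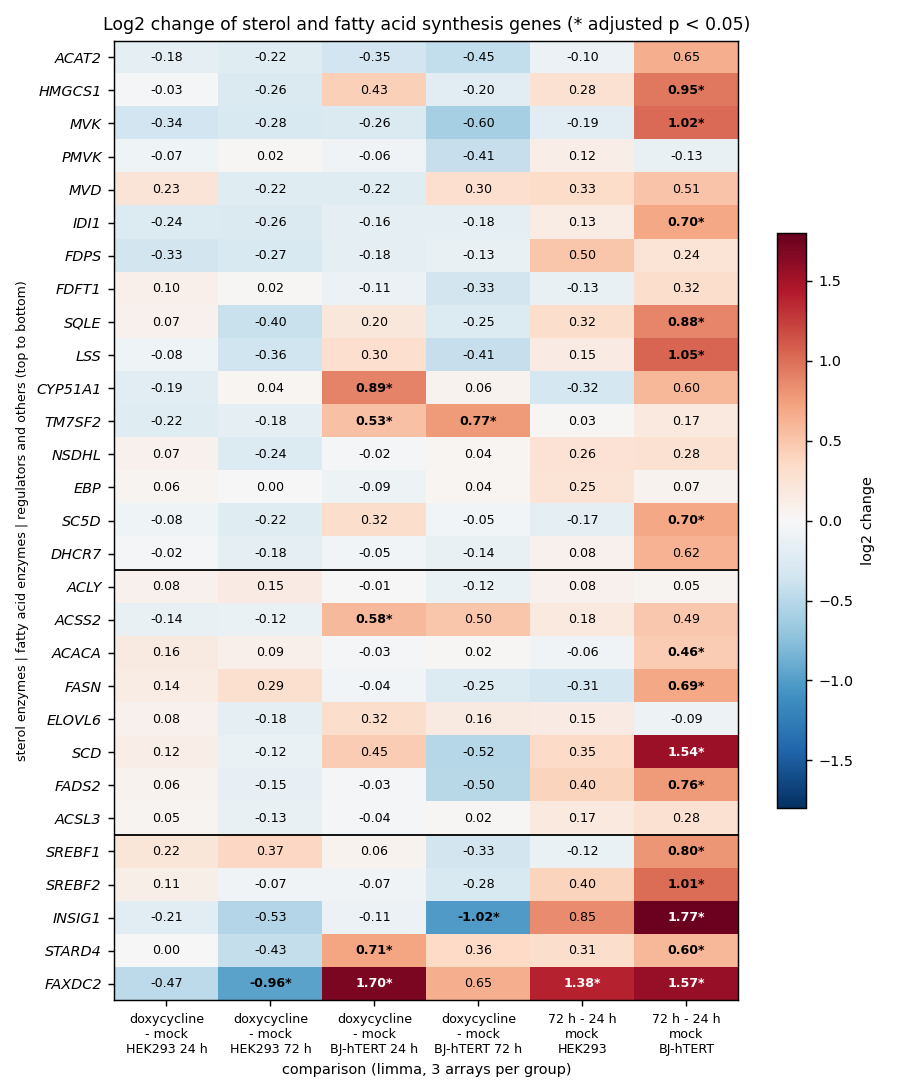
Log2 change of the 29 measured genes (rows, in 3 groups parted by lines) in 6 comparisons (columns, 3 arrays a group). Colour and printed number give the change, and bold numbers with a star passed adjusted p under 0.05. The column of mock BJ-hTERT over time holds 15 stars, and the doxycycline columns hold 0, 1, 5 and 2.

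INSIG1, the sterol-sensing retention protein, gave 8.04, 7.83 and 7.56 log2 at 72 h in mock BJ-hTERT, against 6.04, 5.84 and 6.23 at 24 h. All 3 arrays at 72 h lay above all 3 at 24 h, by 1.77 ± 0.21 log2, or 3.42-fold (adjusted p = 0.000141). The SE comes from the limma fit of all 24 arrays, with n = 3 in each group. SREBF2, which encodes SREBP-2, had 6.98, 6.57 and 6.64 log2 at 72 h, against 5.88, 5.46 and 5.81 at 24 h. The groups did not overlap and the rise was 1.01 ± 0.19 log2 (adjusted p = 0.00922). FAXDC2, a member of the fatty acid hydroxylase family, had 6.15, 6.01 and 5.95 log2 at 72 h, against 4.70, 4.05 and 4.66 at 24 h. Again the groups were apart, with a rise of 1.57 ± 0.22 log2 (adjusted p = 0.000943). SREBF1, which encodes SREBP-1, and STARD4, a carrier of sterol between membranes, rose by 0.80 ± 0.19 and 0.60 ± 0.14 log2.

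Among the sterol enzymes, HMGCS1, the synthase that feeds the mevalonate pathway, gave 6.19, 6.53 and 6.56 log2 at 72 h, against 5.14, 5.25 and 6.03 at 24 h. The third array at 24 h stood nearest to the 72 h arrays, and the rise was 0.95 ± 0.18 log2 (adjusted p = 0.00818). MVK, mevalonate kinase, gave 4.95, 5.22 and 5.23 log2 at 72 h, against 4.13, 3.85 and 4.34 at 24 h, a rise of 1.02 ± 0.19 log2 (adjusted p = 0.00832) with no overlap. SQLE, squalene epoxidase, gave 6.94, 7.02 and 6.88 log2 at 72 h, against 6.22, 5.87 and 6.10 at 24 h. The groups were well apart, by 0.88 ± 0.13 log2 (adjusted p = 0.00147). LSS, which closes the rings of lanosterol, gave 7.88, 7.76 and 7.41 log2 at 72 h, against 6.52, 6.73 and 6.64 at 24 h, and rose by 1.05 ± 0.14 log2 (adjusted p = 0.000475). IDI1, the isopentenyl diphosphate isomerase, and SC5D, a late sterol desaturase, rose by 0.70 ± 0.15 and 0.70 ± 0.16 log2. The other 10 sterol enzymes did not pass. Their changes ran from -0.13 log2 for PMVK, a kinase of the mevalonate pathway, to 0.65 log2 for ACAT2, which joins acetyl-CoA units. ACAT2 (adjusted p = 0.0734) and DHCR7, the reductase that completes cholesterol (0.62 ± 0.19 log2, adjusted p = 0.0998), came nearest to the threshold. Also among the 10 were MVD, which decarboxylates mevalonate diphosphate (0.51 ± 0.25 log2), FDFT1, squalene synthase (0.32 ± 0.18), NSDHL, which helps remove methyl groups from sterols (0.28 ± 0.14), FDPS, farnesyl diphosphate synthase (0.24 ± 0.18), and EBP, a sterol isomerase (0.0703 ± 0.15), none of which passed in any of the 6 comparisons of doxycycline or of time in mock cells.

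Among the fatty acid enzymes, SCD, the desaturase that makes oleate, gave 9.09, 9.34 and 8.66 log2 at 72 h, against 7.76, 7.21 and 7.50 at 24 h. The groups were apart and the rise was 1.54 ± 0.17 log2, or 2.91-fold, with the smallest p of all members (adjusted p = 0.000120). FASN, fatty acid synthase, rose by 0.69 ± 0.14 log2, FADS2, a desaturase of polyunsaturated fatty acids, by 0.76 ± 0.19, and ACACA, acetyl-CoA carboxylase, by 0.46 ± 0.10. The 4 that did not pass were ACSS2, which makes acetyl-CoA from acetate (0.49 ± 0.17 log2), ACSL3, which activates long-chain fatty acids (0.28 ± 0.12), ACLY, ATP citrate lyase (0.0478 ± 0.0938), and ELOVL6, an elongase (-0.0937 ± 0.16). Changes within the fatty acid enzymes thus ran from -0.0937 log2 for ELOVL6 to 1.54 log2 for SCD.

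**Figure D2:**
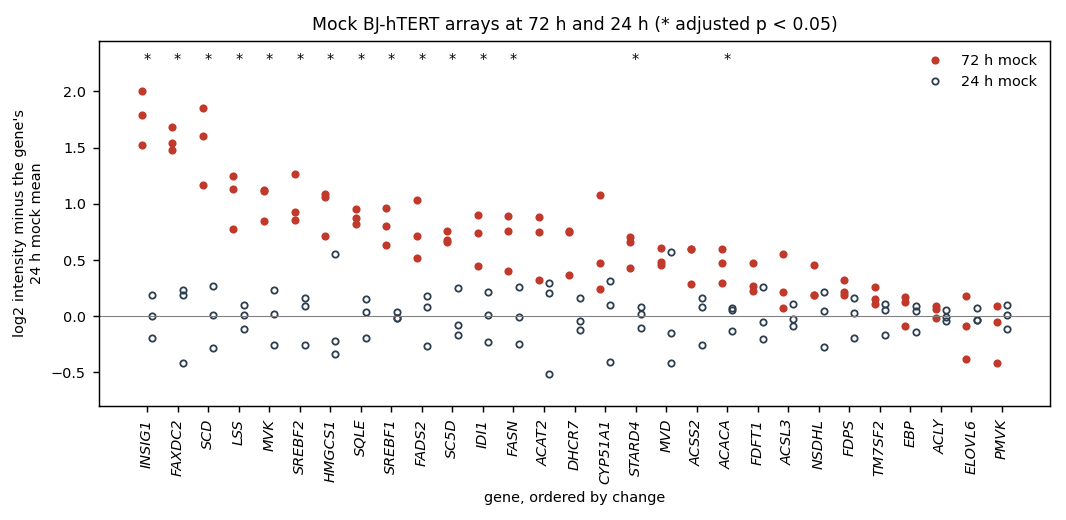
Each array of mock BJ-hTERT as log2 intensity minus the gene's 24 h mean, for 72 h (filled) and 24 h (open), with genes ordered by change and stars at adjusted p under 0.05. INSIG1, FAXDC2 and SCD lie highest, and ACLY, EBP, ELOVL6 and PMVK lie near 0.

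The count of 15 depended on the arrays and on the fit. It was 6 without the second 24 h mock array, 8 without the first 72 h mock array and 9 without the second 72 h mock array. INSIG1, SCD, LSS, FAXDC2 and SQLE passed without any 1 of the 6 arrays. It was 6 in a limma fit on BJ-hTERT arrays alone, 5 with the median of each gene's probe sets (INSIG1, SCD, LSS, HMGCS1 and SREBF2) and 0 in a limma fit on the 6 arrays alone. That last fit called 0 of all 17329 genes, with 18 members and 2188 genes at an unadjusted p under 0.05, and INSIG1 had an adjusted p of 0.0545. Other genes moved at the same time: 8 of 20 mitosis genes fell over time in mock BJ-hTERT, with a median change of -0.43 log2, and 5 of 15 fibroblast markers rose, with a median of 0.57. These are 40% and 33.3% of the lists, against 1.85% of all genes called in either direction. The level of the mitosis list, as the mean log2 over its 20 genes on each array, was 8.34 to 8.51 log2 at 72 h and 8.71 to 8.88 at 24 h. For the fibroblast list it was 8.41 to 8.56 log2 at 72 h and 7.90 to 8.06 at 24 h. Of 6 adipocyte markers, 1 was above the filter value at 72 h and 2 at 24 h, and ADIPOQ, FABP4 and LEP were below it in every group. The part of division and of cell state in the rise was not tested.

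In mock HEK293 cells only FAXDC2 rose between 24 h and 72 h, against 0.369% of all genes called. It had 5.57, 5.58 and 5.78 log2 at 72 h, against 4.40, 4.20 and 4.20 at 24 h. The groups were apart, by 1.38 ± 0.22 log2 (adjusted p = 0.00954). INSIG1 had 9.95, 9.68 and 9.77 log2 at 72 h, against 8.99, 8.95 and 8.91 at 24 h, without overlap, but its difference of 0.85 ± 0.21 log2 did not pass (adjusted p = 0.0749). The median change of the members was 0.15 log2, with 21 of 29 above 0, against 0.00466 for all genes. Groups did not overlap for 12 of 29 members, against 17% of all genes. Of the 29 members, 19 lay above 0 in both lines, the fewest possible given 21 in HEK293 and 27 in BJ-hTERT. FAXDC2 was no longer called without the third 72 h mock array, on HEK293 arrays alone, on the 6 arrays alone, or with the median of probe sets (adjusted p = 0.423).

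The change over time in mock cells was compared between the lines directly. Only FASN passed, against 0.162% of all genes, with a difference of 0.99 ± 0.20 log2 (adjusted p = 0.0433). In BJ-hTERT it had 7.34, 7.21 and 6.85 log2 at 72 h, against 6.20, 6.71 and 6.44 at 24 h. In HEK293 it had 8.76, 8.73 and 8.68 log2 at 72 h, against 9.00, 9.01 and 9.08 at 24 h. FASN was therefore higher at 72 h on every mock BJ-hTERT array and lower at 72 h on every mock HEK293 array. SCD differed by 1.19 ± 0.25 log2 (adjusted p = 0.0501), LSS by 0.91 ± 0.20 (0.0617) and MVK by 1.21 ± 0.27 (0.0680), none of which passed. The median difference was 0.52 log2 and 24 of 29 members lay above 0, against a median of 0.00554 for all genes. The count of 1 was 0 without any 1 of 10 of the 12 arrays, 1 without the third 24 h BJ-hTERT mock array, and 3 without the third 72 h BJ-hTERT mock array.

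Doxycycline raised 5 members in BJ-hTERT at 24 h and lowered 0, or 17.2% of the members, against 8.85% of all genes called and 4.47% called up. The median change of the members was -0.0307 log2, against 0.0243 for all genes. FAXDC2 had 6.09, 6.18 and 6.26 log2 with doxycycline, against 4.70, 4.05 and 4.66 in mock cells. All doxycycline arrays lay above all mock arrays, by 1.70 ± 0.22 log2, or 3.25-fold (adjusted p = 2.5e-05). STARD4 had 6.56, 6.55 and 6.76 log2 with doxycycline, against 5.93, 5.81 and 6.00 in mock cells, and rose by 0.71 ± 0.14 log2 (adjusted p = 0.00228), the groups lying apart. CYP51A1, the lanosterol demethylase, had 6.16, 6.56 and 5.76 log2 with doxycycline, against 4.86, 5.37 and 5.58 in mock cells. The lowest doxycycline array was just above the highest mock array, 2 of the 3 probe sets were higher with doxycycline, and the rise was 0.89 ± 0.22 log2 (adjusted p = 0.0142). ACSS2 had 5.69, 5.71 and 5.74 log2 with doxycycline, against 4.88, 5.30 and 5.22 in mock cells, a rise of 0.58 ± 0.17 log2 (adjusted p = 0.0326). TM7SF2, a sterol reductase, had 3.85, 3.89 and 4.04 log2 with doxycycline, against 3.45, 3.23 and 3.51 in mock cells. Its groups did not overlap, and it rose by 0.53 ± 0.16 log2 (adjusted p = 0.0364). SREBF1, SREBF2 and INSIG1 did not pass, at 0.0646, -0.07 and -0.11 log2.

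FAXDC2 and STARD4 passed without any 1 of the 6 arrays. The count of 5 was 3 without the first mock array and 3 without the first or the third doxycycline array. It was 2 without the second doxycycline array. Without the first mock array, the 3 include a member that is not among those 5. Groups did not overlap for 7 of 29 members, against 25.8% of all genes. With the median of probe sets FAXDC2 did not pass (1.32 log2, adjusted p = 0.243), although all 11 of its probe sets were higher with doxycycline; STARD4 did (0.69 log2, adjusted p = 0.0254), with 10 of 10 probe sets higher. ACSS2 then had 0.21 log2 (adjusted p = 0.651), CYP51A1 0.62 (0.460) and TM7SF2 0.36 (0.592). Leaving out single arrays ended the ACSS2 call in all cases but the second mock array, the TM7SF2 call in all but the third mock array, and the CYP51A1 call without the first mock or the second doxycycline array. In the same comparison all 20 mitosis genes fell, with a median of -1.24 log2 and a mean level of 7.52 to 7.72 log2 per doxycycline array and 8.71 to 8.88 per mock array. At 72 h 19 of the 20 fell, with a median of -0.98 log2. Of 15 fibroblast markers, 2 rose and 0 fell at 24 h, which is 13.3%, against 8.85% of all genes called. At 72 h 2 rose and 4 fell, which is 40%, against 8.62% of all genes. The part of division or of cell state in the BJ-hTERT results was not tested.

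At 72 h doxycycline in BJ-hTERT raised TM7SF2 and lowered INSIG1, so that 6.9% of the members passed, against 8.62% of all genes, a share near the background. INSIG1 had 7.22, 6.88 and 6.27 log2 with doxycycline, against 8.04, 7.83 and 7.56 in mock cells. The doxycycline arrays all lay below the mock arrays, by 1.02 log2 (change -1.02 ± 0.21, adjusted p = 0.00305), or 2.02-fold. With doxycycline at 24 h INSIG1 had 6.36, 5.63 and 5.79 log2, so 2 of the 3 doxycycline arrays of 72 h lay above all 3 of 24 h and the lowest lay among them, a change over time that was not tested. TM7SF2 had 4.47, 3.96 and 4.59 log2 with doxycycline, against 3.55, 3.51 and 3.66 in mock cells, and rose by 0.77 ± 0.16 log2 (adjusted p = 0.00269). The groups were apart, with the second doxycycline array nearest to mock. MVK (-0.60 ± 0.19 log2, adjusted p = 0.0569), SCD (-0.52 ± 0.17, 0.0670), ACSS2 (0.50 ± 0.17, 0.0699), FAXDC2 (0.65 ± 0.22, 0.0725) and LSS (-0.41 ± 0.14, 0.0755) came next and did not pass. The median change was -0.14 log2, against -0.0107 for all genes, and groups did not overlap for 8 of 29 members, against 25.1% of all genes. The count of 2 was 5 without the third mock array, 7 under a stricter filter on low genes, with 3 up and 4 down, 4 with an intensity trend, and 0 in a limma fit on the 6 arrays alone, where 9 members had an unadjusted p under 0.05. TM7SF2 did not pass with the median of probe sets in the limma fit (adjusted p = 0.206). At 72 h, as at 24 h, 12 of its 17 probe sets were higher with doxycycline. Its mock values at 72 h lay near the array medians of 3.32 to 3.53 log2.

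The effect of doxycycline in BJ-hTERT was lower at 72 h than at 24 h for 22 of 29 members, with a median difference of -0.21 log2, against -0.029 for all genes. No member passed the limma test of that difference, 7 had an unadjusted p under 0.05, and only 1 of all genes passed (0.00577%). SCD had the smallest p, with a difference of -0.98 ± 0.25 log2 (adjusted p = 0.196). Its values were 8.50, 8.67 and 8.34 log2 with doxycycline at 72 h, against 9.09, 9.34 and 8.66 in mock cells at 72 h. At 24 h they were 8.10, 7.96 and 7.76 log2 with doxycycline, against 7.76, 7.21 and 7.50 in mock cells. SCD was thus higher at 72 h than at 24 h with or without doxycycline, the distance being smaller with it. Both comparisons of doxycycline and mock in BJ-hTERT share their mock arrays with the comparison of mock cells over time. The 24 h mock arrays that were low for FAXDC2, STARD4 and SCD therefore enter 2 of the results above, and the 72 h mock arrays that were high for INSIG1 likewise.

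**Figure D3:**
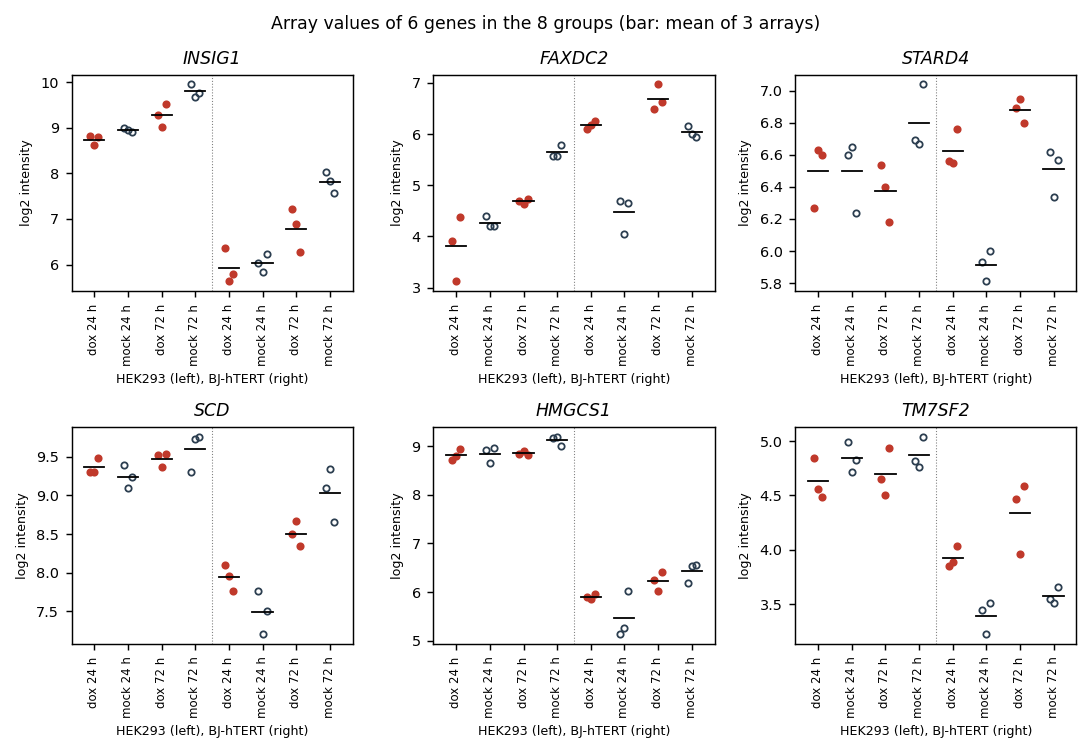
Log2 intensity of 6 genes on every array, with doxycycline (filled) left of mock (open) at 24 h and then at 72 h, HEK293 left and BJ-hTERT right of the dotted line, and bars at the mean of 3 arrays. In BJ-hTERT, INSIG1 with doxycycline at 72 h lies under mock, and FAXDC2 and STARD4 with doxycycline at 24 h lie over mock.

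In HEK293 the members hardly passed anywhere. At 24 h doxycycline changed 0 of 29 (limma; 1 had an unadjusted p under 0.05), against 0.473% of all genes, with a median of 0.00394 log2 and no overlap for 4 of 29, against 14% of all genes. At 72 h only FAXDC2 fell, against 1.21% of all genes called and 0.26% called down. It had 4.69, 4.63 and 4.74 log2 with doxycycline, against 5.57, 5.58 and 5.78 in mock cells. The groups were apart, by -0.96 ± 0.22 log2 (adjusted p = 0.0324), but the call was lost without any 1 of the 6 arrays and with the median of probe sets (adjusted p = 0.456). SQLE (-0.40 ± 0.13 log2, adjusted p = 0.186), STARD4 (-0.43 ± 0.14, 0.200) and INSIG1 (-0.53 ± 0.21, 0.307) did not pass, although their doxycycline arrays all lay below the mock arrays. The median at 72 h was -0.18 log2 and 21 of 29 members lay below 0, against -0.00395 for all genes. Groups did not overlap for 11 of 29 members, against 17.6% of all genes. For the difference of the effect between times in HEK293, 0 members and 0.0173% of all genes passed (limma; 2 members had an unadjusted p under 0.05).

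The effect of doxycycline was also compared between lines. At 24 h it was greater in BJ-hTERT for FAXDC2, by 2.17 ± 0.31 log2 (adjusted p = 0.000284), and for STARD4, by 0.71 ± 0.20 log2 (adjusted p = 0.0482), against 4.74% of all genes called. The FAXDC2 effect was 1.70 log2 in BJ-hTERT and -0.47 in HEK293, and that of STARD4 was 0.71 and 0.00394 log2. At 72 h the difference passed for FAXDC2 (1.61 ± 0.31 log2, adjusted p = 0.00403), TM7SF2 (0.94 ± 0.22, 0.0138) and STARD4 (0.79 ± 0.20, 0.0243), against 5.27% of all genes. The STARD4 difference at 24 h was lost without any 1 of 11 of its 12 arrays, and the count of 2 then fell to 1 without 7 of them: the first or second mock array of either line, the first or second BJ-hTERT doxycycline array, or the third HEK293 doxycycline array. The STARD4 difference at 72 h was lost without the third HEK293 array of either treatment or the second BJ-hTERT array of either (adjusted p = 0.0561 to 0.0715), while FAXDC2 and TM7SF2 passed at 72 h without any 1 array. With the median of probe sets the STARD4 difference at 24 h passed (adjusted p = 0.0463), and those of FAXDC2 at 24 h (0.248) and of FAXDC2, TM7SF2 and STARD4 at 72 h (0.154, 0.264 and 0.173) did not.

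Mock BJ-hTERT cells had lower levels than mock HEK293 cells for most members, over 6 arrays a line. Of the 29, 19 were lower and 2 higher, or 72.4% called, against 60.7% of all genes, of which 34.1% were lower and 26.6% higher. HMGCS1 ran from 5.14 to 6.56 log2 in BJ-hTERT, with a median of 6.11, against 8.65 to 9.20 in HEK293, with a median of 8.98. The lines did not overlap and the difference was -3.03 ± 0.13 log2, or 8.18-fold (adjusted p = 8.04e-15). ACAT2 ran from 4.51 to 5.90 log2 in BJ-hTERT, with a median of 5.33, against 8.06 to 8.47 in HEK293, with a median of 8.23 (difference -2.91 ± 0.13). INSIG1 ran from 5.84 to 8.04 log2 in BJ-hTERT, with a median of 6.89, against 8.91 to 9.95 in HEK293, with a median of 9.34 (difference -2.46 ± 0.15). For these 2 genes, too, every BJ-hTERT array lay below every HEK293 array. FASN differed by -2.08 ± 0.0981 log2. NSDHL and EBP differed by -1.55 ± 0.10 and -1.34 ± 0.11 log2. FADS2 and SREBF1 were the 2 members called higher in BJ-hTERT, by 0.36 ± 0.14 and 0.38 ± 0.13 log2, with overlapping arrays. The other 8 members did not pass, 4 of them above 0. Of the 15 members that rose over time in mock BJ-hTERT, 11 were lower in that line than in HEK293, against 19 of all 29, a similar share. The median difference was -1.21 log2 for sterol enzymes and -0.52 for fatty acid enzymes, against -0.0316 for all genes. Line and origin cannot be told apart, since each kind of cell is 1 line.

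**Figure D4:**
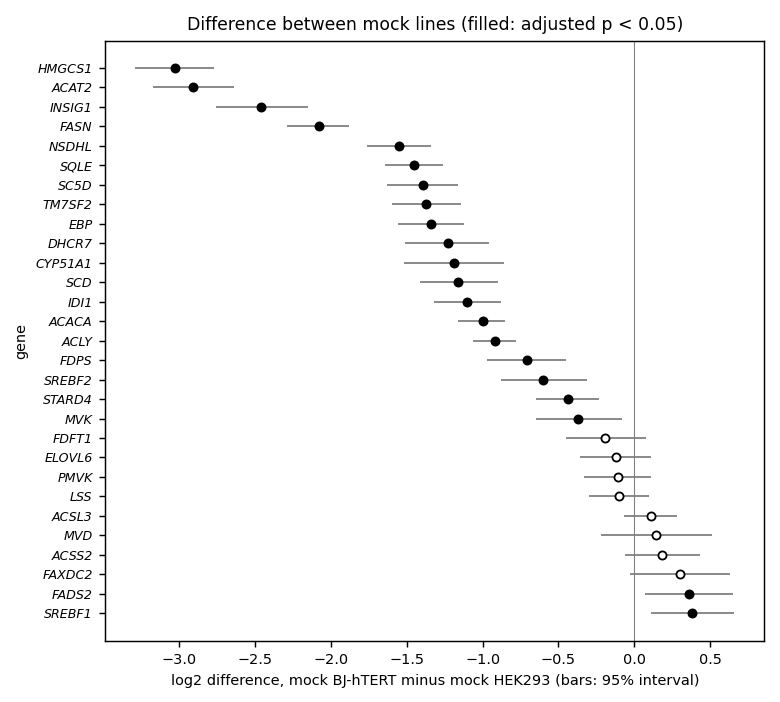
Log2 difference, mock BJ-hTERT minus mock HEK293, for each of the 29 genes with its 95% interval (6 arrays a line, both times together; filled where adjusted p is under 0.05). HMGCS1, ACAT2, INSIG1 and FASN lie below -2, and FADS2 and SREBF1 lie above 0.

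Sterol and fatty acid enzymes were set side by side as the median change of each arm. In mock BJ-hTERT over time the sterol arm gave 0.61 log2 and the fatty acid arm 0.48, a difference of 0.13. As means over genes, the changes of the arms were 0.54 and 0.52 log2. The spread between replicates was taken from the arm means per array, and for the difference of those means it was 0.0440 (SD). In mock HEK293 over time the medians were 0.12 and 0.16 log2. With doxycycline in BJ-hTERT they were -0.0538 and -0.0198 log2 at 24 h, and -0.16 and -0.0498 at 72 h. In HEK293 they were -0.0732 and 0.0803 log2 at 24 h, and -0.22 and -0.12 at 72 h. The difference of the arms was -0.15 log2 in HEK293 with doxycycline at 24 h, though no enzyme of either arm passed there. As means over genes, the changes there were -0.0767 log2 for the sterol arm and 0.0693 for the fatty acid arm. The SD for the difference of arm means was 0.056. The difference of the arms in mock BJ-hTERT was 0.0365 without ACLY and ACSS2 and 0.0198 to 0.14 when single arrays were left out. The mean level of the sterol arm per array in BJ-hTERT was 5.72 to 5.90 log2 with doxycycline at 72 h and 5.88 to 5.97 in mock cells at 72 h. At 24 h it was 5.38 to 5.51 log2 with doxycycline and 5.35 to 5.44 in mock cells. Every 72 h array of BJ-hTERT thus lay above every 24 h array for this arm, with doxycycline and without it. For the fatty acid arm the ranges were 7.24 to 7.55 log2 with doxycycline and 7.46 to 7.55 in mock cells at 72 h, and 7.09 to 7.17 with doxycycline and 6.92 to 7.01 in mock cells at 24 h.

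**Figure D5:**
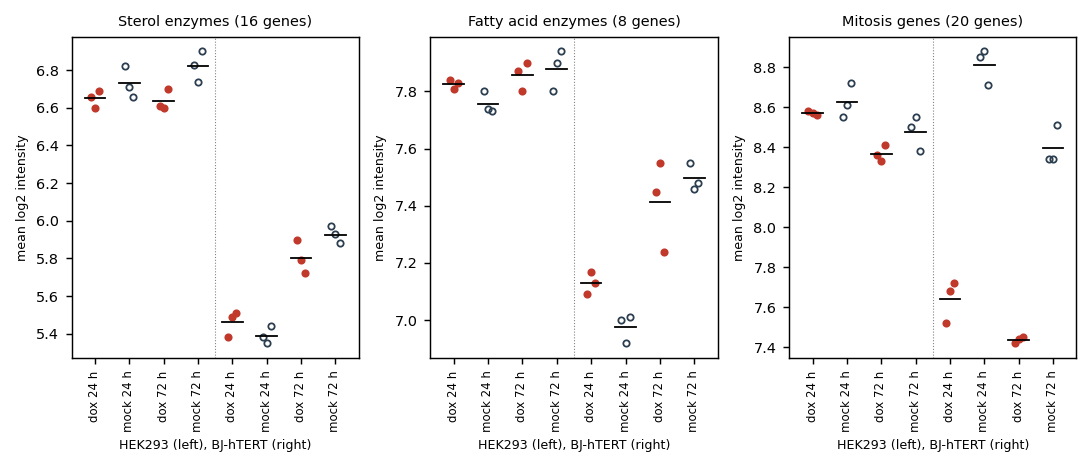
Mean log2 intensity per array of the sterol enzymes, the fatty acid enzymes and the mitosis genes, with doxycycline (filled) left of mock (open) at 24 h and then at 72 h, HEK293 left and BJ-hTERT right of the dotted line; bars are means of 3 arrays. Both arms in BJ-hTERT lie higher at 72 h than at 24 h, and the mitosis genes lie lower with doxycycline in that line.

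Another 37 genes of the same pathways, 19 for sterol handling and 18 for fatty acids, were tested beside the members. In mock BJ-hTERT over time 2 of 19 sterol genes rose and 0 fell (10.5%, against 1.85% of all genes), with a median of 0.15 log2: MSMO1, a methylsterol oxidase, by 0.77 ± 0.15 log2 (adjusted p = 0.00862), and MBTPS1, the protease that first cleaves SREBPs, by 0.58 ± 0.14 (0.0388). None of the 18 fatty acid genes passed there (5 had an unadjusted p under 0.05), with a median of 0.15 log2. With doxycycline in BJ-hTERT at 24 h, 1 of the 19 sterol genes rose and 2 fell (15.8%, against 8.85% of all genes): MBTPS1 rose (0.60 ± 0.14 log2), while TMEM97, a sterol-regulated membrane protein (-0.70 ± 0.13), and LBR, a nuclear membrane protein with sterol reductase activity (-0.55 ± 0.14), fell. At 72 h in BJ-hTERT, MBTPS1 (0.50 ± 0.14 log2) and NPC1, which exports cholesterol from lysosomes (0.69 ± 0.13), rose, and TMEM97 (-0.63 ± 0.13) and ERLIN1, a protein of cholesterol-rich domains of the endoplasmic reticulum (-0.48 ± 0.12), fell, which is 21.1% of the 19, against 8.62% of all genes. Of the 18 fatty acid genes, 2 rose at 24 h (11.1%, near the share of all genes) and 3 at 72 h (16.7%), and 0 fell. ME1, malic enzyme, rose with doxycycline in BJ-hTERT by 0.50 ± 0.12 log2 at 24 h and 0.44 ± 0.12 at 72 h. ACACB, a mitochondrial acetyl-CoA carboxylase, also rose at 24 h (0.48 ± 0.15 log2), and ACSL1, which activates long-chain fatty acids (0.68 ± 0.14), and HSD17B12, a reductase of fatty acid elongation (0.52 ± 0.14), rose at 72 h. In HEK293 the only one of the 37 to pass was ABCG1, a cholesterol exporter, which rose at 72 h by 1.29 ± 0.23 log2 (adjusted p = 0.00414). SCAP, INSIG2 and MBTPS2, the other parts of the SREBP control, passed in none of the 6 comparisons.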

How the data were processed

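The 24 arrays are Affymetrix Human Gene 2.1 ST. Per the submitters' processing notes, the deposited log2 intensities were made with GCOS, RMA and Affymetrix Expression Console. Its design text adds oligo and limma. Their versions, and the build, are not stated, so probes have no positions here. Of 352859 probe sets, 257971 had 1 gene symbol in the platform annotation, 17460 had several and 77428 had none listed, and those with 1 symbol were averaged per gene. Genes were tested if the mean of their brightest group was at or above the 40th percentile of group means (2.83 log2). One limma fit of 8 group means with eBayes (limma 3.58.1, R 4.3.3, version 1.17.8 of data.table) gave all contrasts, adjusted by Benjamini-Hochberg over 17329 genes. The script was tested on simulated data. A ± value is the SE of a contrast.

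The members, gene lists and comparisons were chosen with earlier results of these data known. Any member could be named, with values per array for up to 8 called members per comparison by smallest p, and called companion genes were named. Array number limits the precision. Alternatives varied the filter, probe sets, scaling, arrays fitted, trend and replicate block.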

Additional observations from a re-analysis of the deposited data

Results flagged for a closer look

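The doxycycline effect differed between the lines, by a test of the difference itself, for 3 members. It was greater in BJ-hTERT than in HEK293 for FAXDC2, by 2.17 log2 at 24 h and 1.61 log2 at 72 h. For STARD4 the difference was 0.71 log2 at 24 h and 0.79 log2 at 72 h, and for TM7SF2 it was 0.94 log2 at 72 h. The STARD4 call was lost without any 1 of 11 of the 12 arrays at 24 h and of 4 of the 12 at 72 h. The change over time in mock cells differed between the lines for FASN, by 0.99 log2, BJ-hTERT minus HEK293, a call lost in 17 of 22 alternatives.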

How the results depend on the processing

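The 30 calls of single members, which leave out those of mock BJ-hTERT against mock HEK293, kept their direction in all 540 alternatives. Of these, 379 stayed past the threshold and 161 did not. Counts of members called moved as follows. Without a filter, the line difference at 24 h gave 1 and the difference of mock changes 0. A stricter filter gave 7 for doxycycline in BJ-hTERT at 72 h, 2 for mock HEK293 over time, 4 for the line difference at 24 h and 4 for the difference of mock changes. The median of probe sets gave 0 for doxycycline in HEK293 at 72 h, 2 in BJ-hTERT at 24 h, 5 for mock BJ-hTERT over time, and 1 and 0 for the line difference at 24 h and 72 h. Brighter probe sets gave 1 for the line difference at 24 h and 0 for the difference of mock changes, quantile normalization 0 for that same difference, and median centring 1 for the line difference at 24 h. Arrays of 1 line gave 0 for doxycycline in HEK293 at 72 h, 0 for mock HEK293 over time, 3 for doxycycline in BJ-hTERT at 24 h and 6 for mock BJ-hTERT over time. The compared groups alone gave 2 for doxycycline in BJ-hTERT at 24 h and 0 at 72 h, 0 for mock HEK293 and 0 for mock BJ-hTERT over time, 1 and 1 for the line differences and 0 for the difference of mock changes. An intensity trend gave 4 for doxycycline in BJ-hTERT at 72 h, 2 for mock HEK293 over time and 3 for the difference of mock changes. Fits with fewer arrays have fewer degrees of freedom; for the rest the cause was not tested.

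Same-numbered arrays showed little shared deviation (r = -0.0521 to 0.086). With so few arrays a group, and labels that do not state pairing, these values cannot decide whether the numbers are pairs. With the replicate block the count was 13 for mock BJ-hTERT over time and 0 for the difference of mock changes, against 1 without it.

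Leaving out single arrays gave 6 to 12 for mock BJ-hTERT over time, 0 to 1 for mock HEK293 over time, 2 to 5 for doxycycline in BJ-hTERT at 24 h and 2 to 5 at 72 h, 0 to 0 in HEK293 at both times, 0 to 0 for the differences between times, 1 to 3 and 2 to 4 for the line differences at 24 h and 72 h, 19 to 21 for mock BJ-hTERT against mock HEK293 and 0 to 3 for the difference of mock changes. The sterol minus fatty acid median ranged from 0.0198 to 0.14 for mock BJ-hTERT over time, -0.0951 to 0.077 for mock HEK293, -0.11 to -0.0136 and -0.19 to -0.0449 for doxycycline in BJ-hTERT at 24 h and 72 h, and -0.19 to -0.11 and -0.2 to -0.0371 in HEK293 at 24 h and 72 h. With the median of probe sets it was -0.0939 and -0.31 in HEK293 at 24 h and 72 h, -0.24 and 0.12 in BJ-hTERT at 24 h and 72 h, and 0.085 for mock BJ-hTERT over time. It was 0.0365 there without ACLY and ACSS2.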
